A study of Mus musculus with 10 samples.

Results

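A set of 6 joint interzone genes, the signals Gdf5, Gdf6, Wnt4, Wnt9a and Wnt16 and the transcription factor Erg, was followed in forelimb buds of mouse embryos that lacked Cxxc1 in limb mesenchyme. They and the lists of related genes below were chosen by name, with earlier results of these data known. All 6 were found among the 47729 genes of the deposited table. All 6 also passed the filter on low counts that left 20562 genes for the test. RNA was sequenced from 5 knockout and 5 control embryos collected between embryonic days 11.5 and 12. The knockouts carried Prx1Cre, a Cre driven by a limb mesenchyme enhancer of Prrx1, with floxed Cxxc1 on both chromosomes. Among the controls, embryo 1 had Prx1Cre with 1 floxed allele, embryos 2 and 4 had 1 floxed allele without Cre, embryo 3 had 2 floxed alleles without Cre, and embryo 5 had 2 floxed alleles with its Cre status marked by a question mark in the label. Every embryo of both groups thus carried at least 1 floxed allele. There were 2 knockouts and 2 controls from litter A, and 1 knockout and 1 control from each of the litters B, C and D. Somite stages ran from 49 to 51 in both groups. Whole buds also hold ectoderm, vessels, blood and muscle precursors, in which this Cre is not known to act, and in such bulk samples fewer cells of a type cannot be told apart from less RNA per cell.

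The interzone is the band of flattened cells that splits a cartilage condensation where a synovial joint will form. GDF5 and GDF6 are ligands of the BMP family that bind receptors such as BMPR1B, and mice without Gdf5 lose joints of the digits. WNT9A, WNT4 and WNT16 are secreted WNT ligands of the interzone, and in the mouse loss of Wnt9a together with Wnt4 disturbs synovial joints. ERG is an ETS-family transcription factor of the forming joint and articular cartilage, and it is also a defining factor of endothelial cells.

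CXXC1 binds unmethylated CG dinucleotides as part of the SET1 complexes, enzymes that methylate lysine 4 of histone H3. For this reason the bases just before the annotated starts of the 2 fallen genes with an entry in the RefSeq promoter table (GRCm38.p6) are shown here, with every CG in capitals. Wnt9a (chr11:59306680-59306927, plus strand) and Erg (chr16:95586594-95586843, minus strand, the outermost of 3 listed starts) read as follows, 5′ to 3′ on the strand of the gene. The window of Wnt9a is shown without its last 2 bases, which lie inside the gene as annotated in GENCODE.
Wnt9a: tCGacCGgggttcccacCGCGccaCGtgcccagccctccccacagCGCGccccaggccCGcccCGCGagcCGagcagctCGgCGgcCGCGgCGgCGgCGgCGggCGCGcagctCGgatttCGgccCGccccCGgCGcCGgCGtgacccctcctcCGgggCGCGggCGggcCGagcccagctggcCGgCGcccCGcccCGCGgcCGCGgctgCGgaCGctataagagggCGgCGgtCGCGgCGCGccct
Erg: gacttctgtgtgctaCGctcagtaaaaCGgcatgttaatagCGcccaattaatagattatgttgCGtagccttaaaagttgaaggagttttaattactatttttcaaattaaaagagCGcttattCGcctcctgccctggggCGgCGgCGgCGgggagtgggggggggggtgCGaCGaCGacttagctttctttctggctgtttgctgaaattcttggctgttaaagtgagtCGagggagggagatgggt
In the 250 bases before its RefSeq start Wnt9a held 48 CG, Wnt4 44, Erg 14 and Wnt16 9. Most of the Wnt4 window lies inside the gene as annotated in GENCODE, since the RefSeq start is further downstream. Over all 32851 RefSeq windows of this length the median was 6 CG, and 92.1% held at least 1. At least as many CG as before Wnt9a were found in 0.186% of the windows, and at least as many as before Wnt4 in 0.539%. The share with at least as many was 29.4% for Erg and 40.3% for Wnt16. The other 2 starts of Erg, both within the gene, had 2 and 3 CG. CG reads the same on both strands, and the letters say nothing of methylation or binding here. Gdf5 and Gdf6 had no entry in the table.

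Of the 6 genes, Gdf5, Erg and Wnt9a fell in the knockout, none rose, and Gdf6, Wnt4 and Wnt16 did not pass the test. Levels are given as CPM, the counts scaled to the TMM-adjusted library size, and fold changes as log2 values (knockout over control) from edgeR's quasi-likelihood test, with p-values adjusted by Benjamini-Hochberg over all 20562 genes and a threshold of 0.05. The same test called 35.2% of all genes, 18.1% as higher and 17.1% as lower, so 3 calls among 6 genes lie against a large background. The split was 3719 higher and 3526 lower genes, and 4492 and 2734 when libraries were scaled by their size only. In 3 of the 6 the groups did not overlap, all with the knockouts lower, where 12.4% of all genes had that pattern and 25.3% did not overlap in either direction. The median log2 fold change was -0.63 over the 6 genes and -0.00087 over all genes tested.

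**Figure D1:**
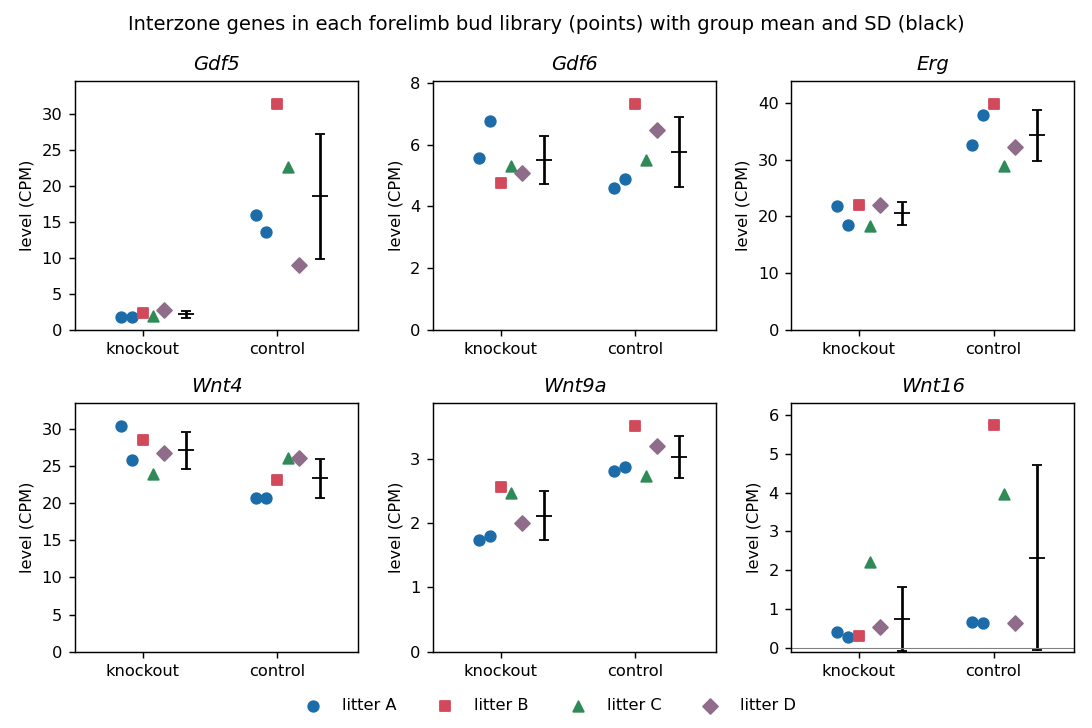
Level of each gene in CPM (y axis, linear) in the 5 knockout and 5 control libraries, with litters by symbol and colour and the group mean and SD in black. Gdf5, Erg and Wnt9a separate the groups, Gdf6 and Wnt4 do not, and for Wnt16 controls 3 and 4 and knockout 4 stand above the other 7 libraries.

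Gdf5 (ENSMUSG00000038259, chromosome 2, 155941023 to 155945367, minus strand, GRCm38) changed most of the 6. Its level was 1.82, 1.78, 2.32, 1.89 and 2.79 CPM in knockouts 1 to 5, against 15.9, 13.6, 31.4, 22.6 and 8.99 CPM in controls 1 to 5. The knockouts lay far below the controls, and the controls themselves differed by up to 3.49-fold, from control 5 at the bottom to control 3 at the top. The means were 2.12 ± 0.435 CPM in knockouts and 18.5 ± 8.71 CPM in controls (SD, n = 5 each), with a log2 fold change of -3.12 (SE 0.31, 95% interval -3.79 to -2.46, edgeR adjusted p = 1.19e-05). An exact permutation test of the CPM (two-sided) gave p = 0.00794, its lowest possible value for 5 against 5. Only 19 of the 20562 genes tested had a lower fitted fold change. Within litters the log2 ratio was -3.04 in A, -3.76 in B, -3.58 in C and -1.69 in D, so that every litter showed the fall and litter D, with the lowest control and the highest knockout, the least of it. The spread of Gdf5 among controls, 47.1% of its mean, was wider than that of 93.7% of all genes tested, and its spread among knockouts, 20.5% of the mean, wider than that of 68.0%.

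Part of the Gdf5 locus is shared with another gene, Gm15557, whose exons on the opposite strand cover 40.3% of the exon bases of Gdf5. The sources used here do not say whether strand was used when reads were assigned. Gm15557 itself held 0 to 9 counts in the knockouts and 8 to 96 in the controls, the most in control 3, and it did not pass the filter. Its sums were 15 counts in knockouts and 161 in controls, where Gdf5 had 459 and 4329.

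Gdf6 (ENSMUSG00000051279, chromosome 4, 9844372 to 9862345, plus strand), a close relative of Gdf5 that is needed for joints of the wrist and ankle in the mouse, was not called. Its level was 5.56, 6.78, 4.77, 5.30 and 5.09 CPM in the knockouts, against 4.60, 4.88, 7.33, 5.51 and 6.48 CPM in the controls. The groups overlapped throughout. The means were 5.50 ± 0.772 CPM in knockouts and 5.76 ± 1.14 CPM in controls (SD, n = 5 each), and the log2 fold change was -0.07 (SE 0.15, edgeR adjusted p = 0.774). Its 95% interval, from -0.39 to 0.25, leaves room for a fall or rise of modest size but not for one as large as that of Gdf5. Litter A ran the other way from the rest, with a log2 ratio of 0.38 where B, C and D had -0.62, -0.06 and -0.35, and the sign of the fold change turned without control 3 (0.04, edgeR adjusted p = 0.881, where 23 alternatives gave 0.144 to 0.967). Without litter A it was -0.35 (edgeR adjusted p = 0.144). The third member of this GDF branch, Gdf7, lay between 0.10 and 0.33 CPM in knockouts and between 0.13 and 0.63 CPM in controls and did not pass the filter.

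Erg (ENSMUSG00000040732, chromosome 16, 95359169 to 95586593, minus strand) fell to 21.9, 18.5, 21.96, 18.3 and 21.9 CPM in the knockouts, against 32.5, 37.8, 39.9, 28.9 and 32.3 CPM in the controls. The highest knockout lay below the lowest control. The means were 20.5 ± 1.94 CPM in knockouts and 34.3 ± 4.46 CPM in controls (SD, n = 5 each), and the log2 fold change was -0.74 (SE 0.10, edgeR adjusted p = 9.29e-05, exact two-sided permutation p = 0.00794). The log2 ratios within litters were alike, from -0.86 in B to -0.56 in D.

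Because endothelial cells also express Erg, their markers were read in the same libraries. Of 12 endothelial markers, 8 rose, none fell and 4 did not pass, with a median log2 fold change of 0.31, where 18.1% of all genes were called higher. Their summed level was 357 to 412 CPM in knockouts and 292 to 337 CPM in controls, with no overlap and none of the 12 at 0. Tek, the angiopoietin receptor, averaged 28.2 ± 4.54 CPM in knockouts and 18.3 ± 3.01 CPM in controls, and Tie1, its co-receptor, averaged 29.6 ± 2.85 CPM in knockouts and 22.4 ± 2.96 CPM in controls (SD, n = 5 each). Egfl7, a factor secreted by endothelium, rose by 0.42 on the log2 scale (SE 0.07) and the sialomucin gene Emcn by 0.31 (SE 0.07). In every knockout library Erg lay below its control mean and the endothelial sum above its own. The shares of Erg that come from mesenchyme and from endothelium were not tested.

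Among the ETS relatives of Erg, Fli1, its closest relative among those tested and also a factor of endothelium, fell further. It averaged 20.9 ± 2.60 CPM in knockouts and 49.2 ± 6.16 CPM in controls (SD, n = 5 each), and its log2 fold change was -1.24 (SE 0.10, edgeR adjusted p = 3.15e-06). Of the 5 relatives tested, Fli1, Ets1 (-0.39, SE 0.08) and Ets2 (-0.28, SE 0.10) fell, Elk3 rose (0.25, SE 0.04) and Etv6 did not pass. Over all genes 17.1% were called lower and 18.1% higher. The groups overlapped for Ets2 (edgeR adjusted p = 0.0440), with knockout 1 at 228.2 CPM and control 1 at 191.7 CPM. Fev and Etv2 did not pass the filter.

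**Figure D2:**
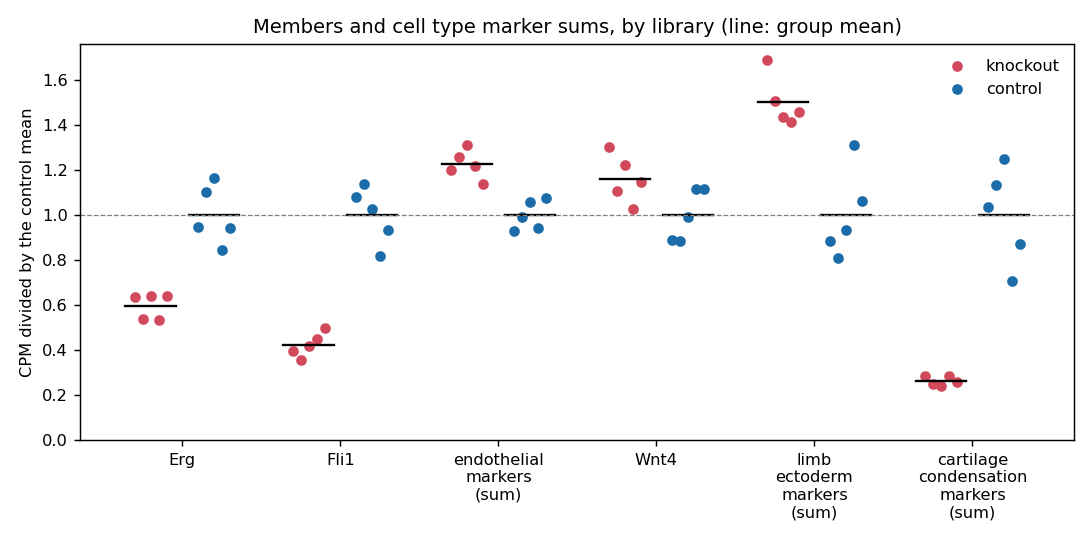
Level in each library divided by the control mean (y axis, linear) for Erg, Fli1, Wnt4 and the summed CPM of endothelial, limb ectoderm and cartilage condensation markers, with knockouts in red left of controls in blue. In knockouts Erg lay between 0.533 and 0.640 of the control mean while the endothelial sum lay between 1.14 and 1.31.

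Wnt9a (ENSMUSG00000000126, chromosome 11, 59306928 to 59333552, plus strand), the WNT ligand that can start joint-like features when misexpressed in chick limbs, was low in both groups and fell. Its level was 1.74, 1.79, 2.56, 2.46 and 2.002 CPM in knockouts, against 2.80, 2.88, 3.51, 2.73 and 3.19 CPM in controls. No libraries overlapped, although knockouts 3 and 4 came close to control 4. The means were 2.11 ± 0.380 CPM in knockouts and 3.02 ± 0.325 CPM in controls (SD, n = 5 each), and the log2 fold change was -0.52 (SE 0.15, edgeR adjusted p = 0.0166, exact two-sided permutation p = 0.00794). Within litters the log2 ratio was -0.68 in A, -0.45 in B, -0.15 in C and -0.67 in D. The call was lost without litter A (-0.43, edgeR adjusted p = 0.160) and with controls labelled as free of Cre only (-0.53, edgeR adjusted p = 0.0563), with the direction kept. The adjusted p ran from 0.00413 to 0.186 over 23 alternatives, and the call was also lost without controls 3 and 4 (-0.49).

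Wnt4 (ENSMUSG00000036856, chromosome 4, 137277489 to 137299726, plus strand) was the only one of the 6 with a positive fold change, and it did not pass. Its level was 30.4, 25.8, 28.5, 23.97 and 26.7 CPM in knockouts, against 20.7, 20.7, 23.2, 26.0 and 26.0 CPM in controls. Controls 4 and 5 reached into the range of the knockouts. The means were 27.1 ± 2.48 CPM in knockouts and 23.3 ± 2.68 CPM in controls (SD, n = 5 each), and the log2 fold change was 0.22 (SE 0.09, edgeR adjusted p = 0.0787, exact two-sided permutation p = 0.0556). It passed without control 4 (0.26, edgeR adjusted p = 0.0485) and when libraries were scaled by their size only (0.27, edgeR adjusted p = 0.0315), with the adjusted p between 0.0315 and 0.686 over 23 alternatives. Without litter A the fold change was 0.07 (edgeR adjusted p = 0.650). The ratio was positive in litters A, B and D (0.44, 0.30 and 0.04) and negative in C (-0.12).

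Wnt4 is also known from limb ectoderm, and more of the ectoderm markers rose than did not. Of 10, 6 rose (18.1% of all genes did), none fell and 4 (Krt14, Krt8, Krt18 and Wnt7a) did not pass. The median log2 fold change was 0.52, with Krt8 the lowest at -0.09, and none of the 10 was at 0 CPM. Their summed level was 559 to 667 CPM in knockouts and 320 to 518 CPM in controls, the highest control being control 4. For Wnt4 itself controls 4 and 5 were level. Krt5, a keratin of basal ectoderm, averaged 219.7 ± 18.2 CPM in knockouts and 120.8 ± 21.6 CPM in controls, and Trp63, the transcription factor of stratified epithelium, averaged 63.2 ± 5.35 CPM in knockouts and 38.7 ± 8.80 CPM in controls (SD, n = 5 each). Sp8, a factor of the apical ridge, rose by 1.03 on the log2 scale (SE 0.14), and the epithelial splicing regulator Esrp1 by 0.55 (SE 0.10). The part of ectoderm in the Wnt4 values was not tested.

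Wnt16 (ENSMUSG00000029671, chromosome 6, 22288227 to 22298522, plus strand) was split within both groups. Its level was 0.399, 0.286, 0.302, 2.21 and 0.521 CPM in knockouts, against 0.657, 0.627, 5.74, 3.97 and 0.630 CPM in controls. Control 3, control 4 and knockout 4 stood well above the other 7 libraries, which all lay below 0.66 CPM, and control 4 and knockout 4 were the 2 embryos of litter C. The underlying counts were 16, 15, 10, 96 and 25 in knockouts and 30, 27, 281, 190 and 28 in controls. The SD was 111.0% of the mean in knockouts and 102.9% in controls, wider than for 99.6% and 99.5% of all genes tested.

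The size of the difference in Wnt16 therefore rested on few libraries. Outside the 3 high libraries the groups did not overlap. Controls 1, 2 and 5 lay at 0.657, 0.627 and 0.630 CPM, and knockouts 1, 2, 3 and 5 at 0.286 to 0.521 CPM. The log2 fold change was -1.64 (SE 0.78, 95% interval -3.33 to 0.05, edgeR adjusted p = 0.125, exact two-sided permutation p = 0.175). Without knockout 4 it passed (-2.61, edgeR adjusted p = 0.0226), and without control 3 it was -0.98 (edgeR adjusted p = 0.362). Without controls 3 and 4, left out after their values were seen and with knockout 4 kept, its sign turned (0.22, edgeR adjusted p = 0.843). These values span the range of its adjusted p over 23 alternatives, from 0.0226 to 0.843. All 4 litters had a negative log2 ratio, from -4.25 in B to -0.27 in D. Controls 3 and 4 were also the 2 highest controls for Gdf5, whereas knockout 4 was in the middle of the knockouts for Gdf5. Controls 3 and 4 were at somite stages 50 and 49 and knockout 4 at 51.

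**Figure D3:**
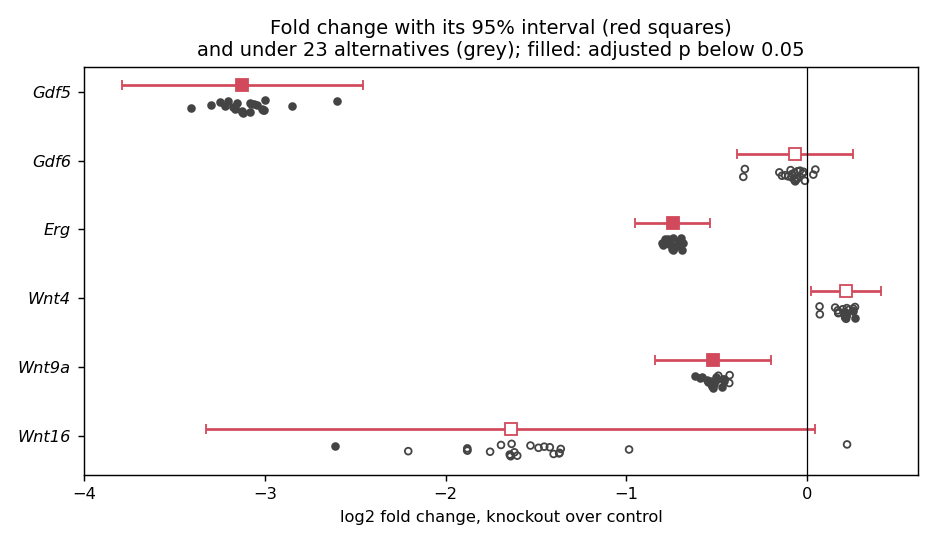
Log2 fold change of each gene, knockout over control (x axis), with its 95% interval as a red square and bar and the values under 23 alternatives as grey points, filled where the adjusted p was below 0.05. Gdf5 and Erg kept their call under all 23, Wnt9a stayed negative but lost its call under 4, and Wnt16 ran from -2.61 to 0.22.

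To compare levels between the genes, CPM was divided by the length of the annotated exons, from 2.32 kilobases for Gdf5 to 4.36 for Wnt16. In knockouts the order of this per-length level was Wnt4 (6.46 ± 0.591), Erg (5.91 ± 0.561), Gdf6 (1.56 ± 0.219), Gdf5 (0.914 ± 0.188), Wnt9a (0.635 ± 0.114) and Wnt16 (0.171 ± 0.189 CPM per kilobase, SD, n = 5). In controls it was Erg (9.90 ± 1.29), Gdf5 (7.97 ± 3.76), Wnt4 (5.56 ± 0.638), Gdf6 (1.63 ± 0.322), Wnt9a (0.909 ± 0.0975) and Wnt16 (0.533 ± 0.549 CPM per kilobase, SD, n = 5). Gdf5 stood below Gdf6 in knockouts and above it in controls. Neighbours in the order had overlapping ranges for Wnt4 with Erg and Gdf5 with Wnt9a in knockouts, and for Erg with Gdf5, Gdf5 with Wnt4 and Wnt9a with Wnt16 in controls. The other neighbours did not overlap.

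**Figure D4:**
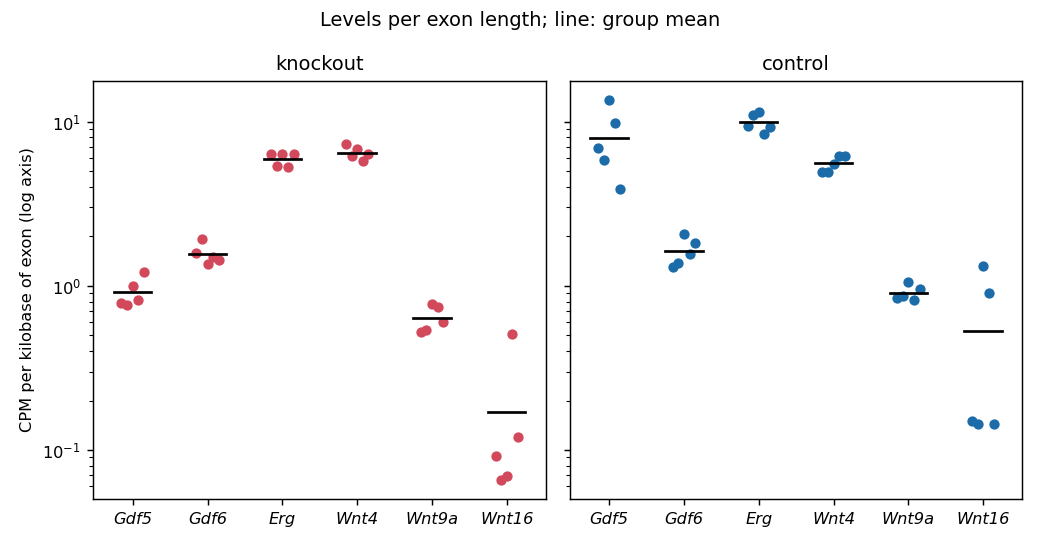
Level per exon length (CPM per kilobase, log axis) of the 6 genes in the 5 knockout (left) and 5 control (right) libraries, with a line at the group mean. Gdf5 averaged 0.914 in knockouts and 7.97 in controls, while Gdf6 averaged 1.56 in knockouts and 1.63 in controls.

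Other genes linked to interzones and early joints mostly fell. Of 20 such genes 19 were tested, of which 14 fell, 1 rose and 4 did not pass, with a median log2 fold change of -0.84 (17.1% of all genes were called lower). Osr2, a zinc-finger factor that acts with Osr1 in joints of the mouse limb, averaged 5.95 ± 1.08 CPM in knockouts and 25.7 ± 4.07 CPM in controls (SD, n = 5 each). Sfrp2, a secreted modulator of WNT signals, averaged 21.8 ± 3.19 CPM in knockouts and 80.0 ± 14.6 CPM in controls (SD, n = 5 each). Has2, which makes hyaluronan, averaged 29.6 ± 1.23 CPM in knockouts and 52.8 ± 3.32 CPM in controls (SD, n = 5 each). Cd44, a receptor for hyaluronan that macrophages carry too, was the gene that rose, with 16.8 ± 1.29 CPM in knockouts and 6.90 ± 0.937 CPM in controls (SD, n = 5 each). In the same libraries all 8 macrophage markers rose, where 18.1% of all genes were called higher. Their summed levels were 179 to 210 CPM in knockouts and 47.6 to 60.9 CPM in controls. The part of macrophages in the rise of Cd44 was not tested.

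Further genes of that list, Jun, Nog and Chrd, were singled out for their known links to the 6 after their values had been seen. Jun, an AP-1 factor upstream of Wnt9a and Wnt16 in mouse joints, fell by 0.72 on the log2 scale (SE 0.13, edgeR adjusted p = 0.00116). Nog and Chrd encode secreted antagonists of BMP ligands. Nog fell by 0.62 (SE 0.19, edgeR adjusted p = 0.0236) and Chrd by 0.97 (SE 0.13, edgeR adjusted p = 9.69e-05). The groups overlapped for Nog, with control 4 at 1.98 CPM and the knockouts at 1.62 to 2.20 CPM.

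Markers of the cartilage condensations that interzones divide fell as well. Of 10 markers 9 were tested, of which 7 fell (17.1% of all genes did), none rose and 2 did not pass, with a median log2 fold change of -2.01. Their summed level was 203 to 241 CPM in knockouts and 590 to 1046 CPM in controls, and Snorc did not pass the filter. Sox9, which starts cartilage formation, fell by 2.59 on the log2 scale (SE 0.18), Col2a1 by 2.08 (SE 0.13), Col11a2 by 2.76 (SE 0.20) and Acan by 3.95 (SE 0.19). From highest to lowest sum, the order of the controls was 3, 2, 1, 5 and 4. For Gdf5 it was 3, 4, 1, 2 and 5. The part of the cartilage cells in the fall of Gdf5 was not tested.

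On the receiving side of GDF5 and GDF6, 6 of 13 receptors and SMADs fell, none rose and 7 did not pass (median log2 fold change -0.21), beside 17.1% of all genes called lower and 18.1% called higher. Bmpr1b, the receptor that GDF5 binds best, averaged 15.996 ± 2.24 CPM in knockouts and 29.4 ± 7.49 CPM in controls (SD, n = 5 each), and its log2 fold change was -0.88 (SE 0.17). The groups of Bmpr1b nearly met, with control 4 at 18.28 CPM and knockout 4 at 18.12 CPM, where the other controls lay at 24.87 to 34.82 CPM. The other genes named by the rule moved less. Bmpr1a fell by 0.41 (SE 0.06), the type II receptor gene Acvr2a by 0.22 (SE 0.07) and the signal transducer Smad5 by 0.24 (SE 0.04).

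The rest of the WNT ligand family had no common direction. Of 16 other ligands 14 were tested, of which 4 rose, 4 fell and 6 did not pass, with a median log2 fold change of 0.08 (18.1% of all genes were called higher and 17.1% lower). Wnt11 averaged 5.93 ± 2.03 CPM in knockouts and 35.4 ± 4.14 CPM in controls, and Wnt5a, a ligand of limb outgrowth, averaged 225.9 ± 40.1 CPM in knockouts and 377.2 ± 48.6 CPM in controls (SD, n = 5 each). Wnt5b fell by 0.37 (SE 0.06). Wnt8a, near silent in controls with at most 0.25 CPM, reached 2.67 to 3.80 CPM in knockouts. Wnt1 and Wnt8b did not pass the filter.

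Among 20 WNT receptors and mediators, 11 fell, 4 rose and 5 did not pass (median log2 fold change -0.31), and the 4 that rose are close to the 18.1% of all genes called higher, where 17.1% were called lower. Porcn, the enzyme that attaches the lipid every WNT ligand needs for secretion, averaged 5.58 ± 0.556 CPM in knockouts and 9.73 ± 0.732 CPM in controls (SD, n = 5 each). The receptor gene Fzd9 averaged 0.859 ± 0.156 CPM in knockouts and 2.55 ± 0.447 CPM in controls (SD, n = 5 each). Fzd1 fell by 0.49 (SE 0.06) and Fzd4 by 0.67 (SE 0.08). These 4 genes were named by smallest adjusted p, and none of them is among the 4 that rose. Genes given above with a level or fold change but no p had an adjusted p below 0.05 in edgeR's test unless said otherwise.

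**Figure D5:**
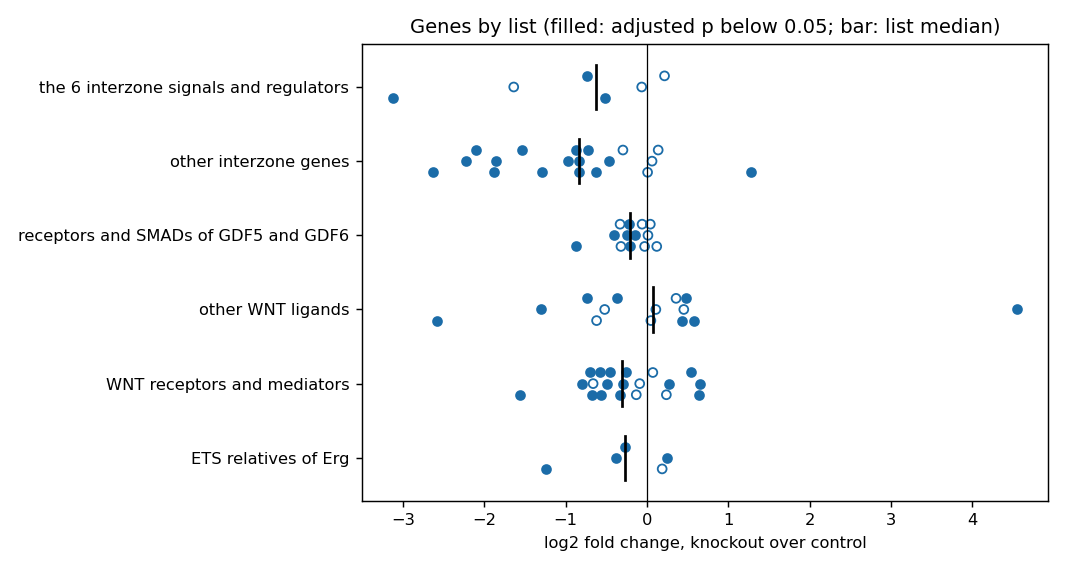
Log2 fold change, knockout over control (x axis), of every tested gene in the 6 interzone signals and regulators and in 5 related lists, filled where the adjusted p was below 0.05, with a bar at each list's median. The medians were -0.63 for the 6 genes, -0.84 for other interzone genes, -0.21 for receptors and SMADs, 0.08 for other WNT ligands, -0.31 for WNT receptors and mediators and -0.28 for ETS relatives.

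Genes whose levels varied most like each of the 6 between libraries of the same group were sought among 11851 genes of at least 5 CPM, by Pearson's r of log2 CPM deviations from the group means over the 10 libraries. The first were Lcp2 for Gdf5 (r = 0.94), Hdac7 for Gdf6 (0.95), Tnrc6b for Erg (0.96), Gng12 for Wnt4 (0.96), Cblb for Wnt9a (0.98) and Klhl15 for Wnt16 (0.95). These are the highest of many values from few libraries and are given as a description only.

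Across the series the targeted gene Cxxc1 was at 73.1 to 76.2 CPM in knockouts and 89.5 to 105.8 CPM in controls, a log2 fold change of -0.36 (SE 0.05, edgeR adjusted p = 0.000144). The count is over all exons, so it cannot show the deletion itself. Tbx5, which marks forelimb, was at 75.9 to 102.8 CPM in knockouts and 160.1 to 206.1 CPM in controls, and of the hindlimb markers Pitx1 stayed at or below 1.78 CPM while Tbx4 was at 9.40 to 14.7 CPM in knockouts and 9.91 to 12.2 CPM in controls. The limb mesenchyme markers fell in 4 of 8 genes and rose in none, where 17.1% of all genes fell, with summed levels of 953 to 1099 CPM in knockouts and 1454 to 1662 CPM in controls. Erythroid markers rose in 6 of 7 genes and muscle precursor markers in 5 of 6, where 18.1% of all genes rose. The erythroid sums overlapped, at 1758 to 3720 CPM in knockouts and 1603 to 1794 CPM in controls, and the muscle precursor sums were 101.8 to 172.6 CPM in knockouts and 70.6 to 89.8 CPM in controls. Xist, from the inactive X chromosome, was high in knockout 3 (2290 CPM) and control 1 (4114 CPM), and at most 5.48 CPM in the other 8 libraries.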

How the data were processed

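Total RNA of 10 mouse forelimb bud samples was compared. Libraries were made with an Illumina RNA kit, per the labels' protocols. The deposited table holds estimated counts per Ensembl gene, which the authors made. The submitters' processing notes name the build mm10 and the tools DESeq2 1.16.1, R 3.4.1 and Salmon 0.8.2, without their roles, and the sources used here do not say how transcripts were summed to genes. Counts were rounded to whole numbers. A second deposited table, named as FPKM, holds a signal made by the authors: every value above 0, times 1 factor per library, lay within 0.01 of a whole number. It served only as an alternative, as log2 of the value plus 1. None of the columns (0) belonged to no sample. Symbols, coordinates and exon lengths came from GENCODE M21 (GRCm38, the assembly of mm10), which gave a symbol for 47224 gene IDs. Promoter sequences came from RefSeq.

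Totals were 33274911 to 49880815 counts per library, and a count of 0 allows up to 0.0902 CPM in the shallowest library (3 counts). This limit covers counting error only, since reads lacked molecular identifiers and may be copies of 1 molecule. The test was edgeR 4.0.16's quasi-likelihood test (in R 4.3.3) of knockout against control without covariates, after TMM scaling and a filterByExpr filter (at least 10 counts, at least 15 in total), with Benjamini-Hochberg adjustment. SE is the absolute log2 fold change over the square root of F. Single levels were compared by exact two-sided permutation, ignoring litters. The biological coefficient of variation was 16.4%. The fit was tested on simulated data. Embryos were separate animals.

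Titles give both groups the numbers 1 to 5, and the labels put same-numbered embryos in 1 litter, so the numbers match by litter. Embryos 1 and 2 of both groups are all from litter A, and the labels do not say which of them form a pair. Deviations of same-numbered libraries from their group means correlated at -0.10 to 0.18 (5 pairs). Alternatives were DESeq2 1.42.0, limma 3.58.1, other scaling, no filter, blocks of number or litter, somite stage, and fewer libraries. The 6 genes and the lists were chosen with earlier results of these data known. Named were all 6, up to 4 genes per list by smallest adjusted p, and the genes said to be singled out. For the lists of macrophage, erythroid, muscle and mesenchyme markers counts and sums are given, with Tbx5 named as the forelimb check. Wnt7a is in 2 lists.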

Additional observations from a re-analysis of the deposited data

Results flagged for a closer look

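In 84 groups of 5 libraries (42 named genes, both genotypes), 5 held 1 library far from the other 4 by Dixon's test. Chance alone flags about 1 in 20 such groups. Wnt16 was at 2.21 CPM in knockout 4, where the other knockouts lay between 0.286 and 0.521 CPM. This is the library without which Wnt16 passed the test. Gdf7 was at 0.63 CPM in control 5, where the other controls lay between 0.131 and 0.188 CPM. Trp63 was at 72.3 CPM in knockout 1 (59.0 to 62.5 CPM in the other knockouts), Fzd4 at 37.3 CPM in control 5 (46.6 to 49.9 CPM in the other controls) and Tek at 23.5 CPM in control 3 (16.3 to 18.4 CPM in the other controls).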

How the results depend on the processing

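Each result was recomputed under 23 alternatives, of which 3 (without the 2 libraries of high Xist, without controls 3 and 4, and a litter block without litter A) were added after seeing the data. Gdf5 (-3.41 to -2.60) and Erg (-0.80 to -0.68) kept direction and call under all 23. Wnt9a stayed negative and lost its call under 4: without litter A (-0.43), with controls labelled CreWT only (-0.53), without controls 3 and 4 (-0.49) and with a litter block without litter A (-0.43). Gdf6 turned positive without controls 3 and 4 (0.047), was at -0.35 without litter A (-0.34 with a litter block as well) and ran from -0.15 to 0.035 over the settings that left out 1 library. Wnt4 passed with scaling by library size only (0.27), was at 0.07 without litter A, with or without a litter block, and ran from 0.17 to 0.26 with 1 library left out. Wnt16 turned positive without controls 3 and 4 but with knockout 4 kept (0.22), and ran from -2.61 to -0.98 with 1 library left out. With a replicate block of number 3491 genes were higher and 3359 lower, and with a replicate block of litter 3723 and 3591, against 3719 and 3526 with no block. Neither block changed a call of the 6 genes, and under them Wnt16 was at -1.37. Leaving out litter A gave 2002 higher and 2021 lower genes (3 against 3), and 1878 and 1901 with a litter block as well. Fewer libraries entered there, and the cause of the other shifts was not tested. Wnt16 rests on 10 to 281 counts per library.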
